A study of Homo sapiens with 6 samples.

Results

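The HOX genes examined here were the 38 genes of the HOXA, HOXB, HOXC and HOXD clusters listed as members, taken by gene symbol from the annotation of the array and with no filter on signal. A probe set (a group of short probes read as 1 value) carried the symbol of 1 member in 44 of the 54675 cases, and these 44 covered 28 members among 19775 genes named in this way. All 10 HOXB genes, all 9 HOXC genes and 8 of 9 HOXD genes had a probe set of their own. Of the 10 HOXA genes listed, HOXA2 alone did, so the HOXA cluster could hardly be read here. HOXD3 was named only together with HOXD4 and a further locus, in 3 probe sets with log2 signals of 1.92 to 2.5, and these were not used for either gene.

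The RNA came from KHOS and U-2OS, established human osteosarcoma cell lines, the tumor of bone-forming cells. Each line was left untransfected, transfected with nonspecific siRNA at 40 nM, or transfected with CDK11 siRNA at 40 nM, which lowers the messenger RNA of cyclin-dependent kinase 11, and the methods give 48 h. RNA of 3 flasks was pooled per array, giving 1 array per condition and line and 6 arrays in all. The 3 arrays of a line are therefore 3 conditions of 1 cell line and not separate cultures of 1 condition, and the p-values measure only the spread among these arrays, part of which is technical.

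HOX genes encode homeodomain transcription factors and lie in clusters in which the order of the genes follows the order of the body regions that they pattern. Genes at the 3′ end of a cluster, with low numbers, act in the hindbrain and neck, and genes at the 5′ end, with high numbers, act in the lower trunk and the distal limb. Genes with the same number in different clusters are paralogs, and mesenchymal cells often keep the HOX code of the place they came from.

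The deposited values are log2 signals normalized with gcrma. The limit for a clear signal was set at 100, which is 6.64 in log2 units, and 24.8% to 25.9% of the probe sets on an array lay above it. The median log2 signal ran from 2.92 to 2.98. The knockdown was seen in all 5 probe sets assigned to CDK11A and CDK11B together, whose log2 differences from nonspecific siRNA were -2.32 to -1.32 in KHOS and -2.76 to -0.21 in U-2OS. Of the osteoblast markers, RUNX2 (KHOS minus U-2OS 4.08 ± 1.43, adjusted p = 0.00321) was above the limit on all KHOS arrays and on 1 U-2OS array, COL1A1 (-0.87 ± 0.47, 0.0186) and SPARC (-0.65 ± 0.41, 0.0331) were above it on all arrays, and SPP1 (-1.83 ± 1.24, 0.0399) was brighter in U-2OS but below it on all arrays. SP7, ALPL, IBSP and COL1A2 lay between 2.19 and 3.0 on all arrays.

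Promoters are shown first for the 5′ part of the HOXD cluster, because the line difference in the HOX genes was largest there, at HOXD10 and HOXD11. No line difference was read at HOXD12, HOXD9 and HOXD8, whose probe sets were dim. The sequences are the 250 bases before the start of the gene in RefSeq, build GRCh38.p14, all on the plus strand of chromosome 2. HOXD12 is at chr2:176099545-176099794, HOXD11 at chr2:176107030-176107279, HOXD10 at chr2:176116528-176116777 and HOXD8 at chr2:176129455-176129704. HOXD9, which lies between HOXD10 and HOXD8, is named only. Capitals mark matches on either strand to CCAAT, the box bound by NF-Y, and to TGATTNAT, the joint site of PBX and HOX proteins.
HOXD12: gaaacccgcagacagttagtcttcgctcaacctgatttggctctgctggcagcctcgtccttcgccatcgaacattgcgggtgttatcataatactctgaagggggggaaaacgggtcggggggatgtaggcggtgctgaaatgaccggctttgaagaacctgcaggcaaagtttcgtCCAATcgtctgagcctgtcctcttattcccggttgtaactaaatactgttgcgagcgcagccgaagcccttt
HOXD11: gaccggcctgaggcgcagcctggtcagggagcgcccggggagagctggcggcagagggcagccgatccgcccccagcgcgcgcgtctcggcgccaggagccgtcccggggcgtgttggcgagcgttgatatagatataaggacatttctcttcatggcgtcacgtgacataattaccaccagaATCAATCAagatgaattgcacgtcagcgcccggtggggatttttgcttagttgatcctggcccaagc
HOXD10: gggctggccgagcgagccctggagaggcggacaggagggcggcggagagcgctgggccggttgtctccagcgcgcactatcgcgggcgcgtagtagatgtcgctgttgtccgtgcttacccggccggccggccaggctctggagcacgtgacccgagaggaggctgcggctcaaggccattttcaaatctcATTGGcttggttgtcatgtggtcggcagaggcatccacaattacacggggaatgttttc
HOXD8: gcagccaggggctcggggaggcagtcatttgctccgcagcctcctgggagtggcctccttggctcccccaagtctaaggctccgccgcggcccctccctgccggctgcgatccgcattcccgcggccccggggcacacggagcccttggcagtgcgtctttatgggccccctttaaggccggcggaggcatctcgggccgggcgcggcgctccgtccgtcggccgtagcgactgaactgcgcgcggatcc

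The windows of HOXD12 and HOXD10 each held 1 CCAAT match, that of HOXD11 held 1 TGATTNAT match and that of HOXD8 held neither. HOXD10 and HOXD11 each had 23 CG dinucleotides, HOXD8 had 28 and HOXD12 had 16. In 26 distinct windows of 20 members the median was 19.5 CG, and in all 34943 distinct windows it was 11. Most of the member windows were those of HOXA genes, several of them of HOXA3 alone. HOXB2 to HOXB13 and HOXC6 to HOXC13 had no window, so the member counts given here do not cover these genes. CCAAT occurred in 17 of the 26 member windows and in 32.0% of all windows. TGATTNAT occurred in 2 member windows, those of HOXD11 and HOXA2, and in 2.49% of all windows. TATAAA occurred in 5 of them and in 10.8% of all, and AGGTCA, the core motif of nuclear receptors such as those for retinoic acid, in 0 of them and in 12.1% of all. These matches are descriptions of the letters in each window and no evidence of binding.

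A partial HOX code was detected in each line. In KHOS, 7 of the 28 members had a probe set above the limit on all 3 arrays (HOXB2, HOXB3, HOXB6, HOXB7, HOXC4, HOXC6 and HOXC10), or 25.0%, where 38% of all named genes did. In U-2OS there were 8 (HOXB2, HOXB3, HOXB7, HOXB9, HOXC6, HOXC10, HOXD10 and HOXD11), or 28.6%, where 37.7% of all named genes did. Both lines shared 5 of them, HOXB2, HOXB3, HOXB7, HOXC6 and HOXC10. By cluster, KHOS had 4 HOXB, 3 HOXC and 0 HOXD genes above the limit, and U-2OS had 4 HOXB, 2 HOXC and 2 HOXD genes. Among the 28 members read, the highest paralog group above the limit was 10 in KHOS and 11 in U-2OS. HOXA2 was the only HOXA gene read, so HOXA genes of higher groups are not covered by these counts. With the limit doubled to a signal of 200, 5 genes remained above it on all 3 arrays in KHOS and 5 in U-2OS. HOXD11 was then no longer among them, and the highest paralog group among the members read was 10 in both lines.

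**Figure D1:**
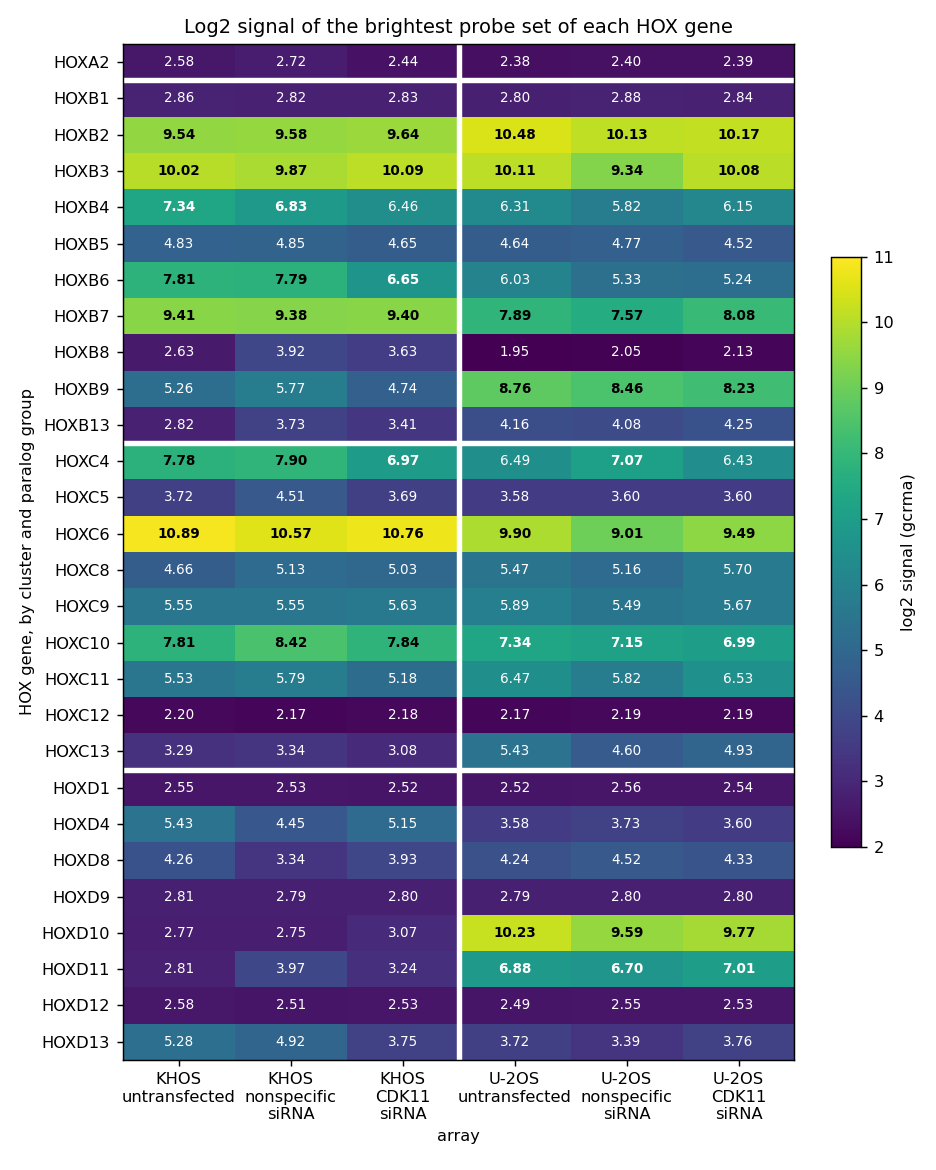
Log2 signal of the brightest probe set of each of 28 HOX genes (rows, by cluster) on the 6 arrays (columns), with the value in each cell and bold type above the limit of 6.64. HOXD10 and HOXD11 are in bold in the 3 U-2OS columns only, and 17 genes have no bold value. Colors of different rows come from different probe sets and do not rank genes against each other.

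The 17 members never above the limit ranged from 1.95 to 6.53. The 7 below 4 on all 6 arrays were HOXA2, HOXB1, HOXB8, HOXC12, HOXD1, HOXD9 and HOXD12, among them the most 3′ genes of the HOXA, HOXB and HOXD clusters that could be read. HOXC11, a lumbosacral gene, came nearest to the limit, with 5.53, 5.79 and 5.18 in KHOS against 6.47, 5.82 and 6.53 in U-2OS. HOXD13, which patterns the digits, had 5.28, 4.92 and 3.75 in KHOS against 3.72, 3.39 and 3.76 in U-2OS. Here and below, values are given for untransfected cells, nonspecific siRNA and CDK11 siRNA, in this sequence.

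The lines were compared with limma, with transfection as a block, and the difference is KHOS minus U-2OS on the log2 scale, given as mean ± SD over the 3 transfections. Of 28 members, 14 passed at an adjusted p of 0.05 by their brightest probe set, or 50%, against 34.6% of all named genes. KHOS was brighter for 8 of them, where 17.7% of all genes were, and U-2OS for 6, where 16.9% were. Over the 44 probe sets, 10 were brighter in KHOS and 9 in U-2OS (43.2% in all, background 25.3%). The median difference of the members was 0.0070, and that of all probe sets was 0.0016. The split over the 44 probe sets depended on scaling. The arrays were also centered on the median of the probe sets above the limit on any array. The median of all probe sets then moved to -0.15, and 69.5% of all probe sets passed. U-2OS was brighter for 24 member probe sets in that fit, and KHOS for 31.4% of the calls in place of 52.6%. The 14 members called by their brightest probe set kept their call and direction with centered arrays. The lines did not overlap for 9 genes brighter in KHOS and 8 brighter in U-2OS, where 21.2% and 21.1% of all genes behaved likewise. An exact permutation test of 3 against 3 arrays cannot give a p below 0.1, so no such test is quoted for single genes.

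HOXD10, which acts in the lumbar cord and the hindlimb, had the largest difference of the 28 members. Its log2 signals were 2.77, 2.75 and 3.07 in KHOS against 10.23, 9.59 and 9.77 in U-2OS. All U-2OS arrays were far above all KHOS arrays, whatever the transfection. The difference was -7.00 ± 0.41 (n = 3, limma adjusted p = 3.9e-05), and since KHOS lay near background the U-2OS mean is better given as at least 9.32-fold above the limit. The other probe sets of HOXD10 stayed below the limit and differed in the same direction, by -3.12 ± 0.56 and -2.52 ± 0.55.

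HOXD11, which with its HOXA paralog shapes the forearm and the lower leg, was the next. Its signals were 2.81, 3.97 and 3.24 in KHOS against 6.88, 6.70 and 7.01 in U-2OS. The lines did not overlap, and the U-2OS signals stood only just over the limit. The difference was -3.53 ± 0.70 (adjusted p = 0.000639), at least 1.17-fold when KHOS is set at the limit. The probe sets of the genes on either side did not show such a difference. HOXD12 lay between 2.49 and 2.58 on the 6 arrays and HOXD9 between 2.79 and 2.81, and HOXD8 differed by -0.52 ± 0.61 (adjusted p = 0.252). All of them were below the limit, and HOXD12 and HOXD9 were near background, where a line difference cannot be read. HOXD4, a hindbrain gene at the 3′ side, was brighter in KHOS, with 5.43, 4.45 and 5.15 against 3.58, 3.73 and 3.60 (1.37 ± 0.58, adjusted p = 0.0112). All of these HOXD4 values were below the limit.

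HOXB9, a thoracic gene, was the third of the 3 members that differed by more than 3 log2 units, a size that 4.52% of all named genes reached. Its signals were 5.26, 5.77 and 4.74 in KHOS against 8.76, 8.46 and 8.23 in U-2OS. No KHOS array reached the limit and every U-2OS array passed it. The difference was -3.22 ± 0.47 (adjusted p = 0.000329), at least 3.58-fold with KHOS at the limit, and the second probe set gave -1.23 ± 0.32 (adjusted p = 0.00508).

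Within the same cluster, HOXB6 and HOXB7 went the other way. HOXB7, a trunk gene studied for its part in tumor cell growth, had 9.41, 9.38 and 9.40 in KHOS against 7.89, 7.57 and 8.08 in U-2OS. All arrays were above the limit and KHOS was the brighter line, with no overlap. The fold was 2.92 (1.55 ± 0.25, adjusted p = 0.000903), and the other probe sets gave 1.54 ± 0.16 and 1.42 ± 0.21. HOXB6 had 7.81, 7.79 and 6.65 in KHOS against 6.03, 5.33 and 5.24 in U-2OS. The KHOS arrays were all above the limit, the CDK11 siRNA array only just, and no U-2OS array was. The difference was 1.88 ± 0.53 (adjusted p = 0.00281), at least 1.70-fold. The other probe set of HOXB6 lay near background, at 2.26 to 2.31 on the 6 arrays, and showed no line difference (0.0041 ± 0.037).

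Toward the 3′ end of the HOXB cluster the lines were closer. HOXB2, which patterns the hindbrain, had 9.54, 9.58 and 9.64 in KHOS against 10.48, 10.13 and 10.17 in U-2OS, a fold of 1.59 in favor of U-2OS (-0.67 ± 0.23, adjusted p = 0.0110). HOXB3, its neighbor, had 10.02, 9.87 and 10.09 in KHOS against 10.11, 9.34 and 10.08 in U-2OS. The HOXB3 arrays overlapped, and the difference of 0.15 ± 0.33 did not pass (adjusted p = 0.725). HOXB4, known for expanding blood stem cells, had 7.34, 6.83 and 6.46 in KHOS against 6.31, 5.82 and 6.15 in U-2OS. Only the first 2 KHOS values were above the limit, and the difference was 0.78 ± 0.41 (adjusted p = 0.0389, 0.129 without the untransfected U-2OS array and 0.126 without the untransfected KHOS array). HOXB5 lay between 4.52 and 4.85 in both lines.

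The HOXC cluster was read in both lines. HOXC6, a thoracic and mammary gene, had 10.89, 10.57 and 10.76 in KHOS against 9.90, 9.01 and 9.49 in U-2OS. Every KHOS array was brighter than every U-2OS array, with a fold of 2.42 (1.27 ± 0.28, adjusted p = 0.00151). HOXC10, a gene of lumbar motor neurons and hindlimb, gave 7.81, 8.42 and 7.84 for KHOS and 7.34, 7.15 and 6.99 for U-2OS. It was also brighter on all KHOS arrays, by 0.86 ± 0.40 (adjusted p = 0.0230).

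HOXC4, the most 3′ gene of the cluster, had 7.78, 7.90 and 6.97 in KHOS against 6.49, 7.07 and 6.43 in U-2OS. The lines overlapped, since the U-2OS array with nonspecific siRNA was brighter than the KHOS array with CDK11 siRNA. The difference was 0.89 ± 0.37 (adjusted p = 0.0196), and without the untransfected array of KHOS or of U-2OS it no longer passed (0.69, adjusted p = 0.0523 and 0.0518). HOXC4 and HOXC5 are listed with the same promoter window, chr12:54016638-54016887 on the plus strand of GRCh38.p14, so the window is shown once for both. It has 14 CG dinucleotides and 2 CCAAT matches, in capitals and read from the other strand. HOXC5 itself had 3.72, 4.51 and 3.69 in KHOS and 3.58 to 3.60 in U-2OS, all below the limit, and did not pass (0.38 ± 0.46, adjusted p = 0.296).
HOXC4 and HOXC5: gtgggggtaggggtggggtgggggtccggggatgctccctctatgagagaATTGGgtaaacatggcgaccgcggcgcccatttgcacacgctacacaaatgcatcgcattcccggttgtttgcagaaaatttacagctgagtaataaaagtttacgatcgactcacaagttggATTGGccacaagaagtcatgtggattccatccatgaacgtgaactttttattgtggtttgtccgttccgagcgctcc

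Between HOXC6 and HOXC10 on the chromosome, the signals dropped below the limit. HOXC8 lay at 4.66, 5.13 and 5.03 in KHOS against at 5.47, 5.16 and 5.70 in U-2OS, and HOXC9 lay between 5.49 and 5.89 on all 6 arrays. Signals of separate probe sets do not rank genes, so only their place against the limit is read here. HOXC13, a hair and nail gene, was brighter in U-2OS, with 5.43, 4.60 and 4.93 against 3.29, 3.34 and 3.08 (-1.75 ± 0.45, adjusted p = 0.00226), below the limit throughout.

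Of the members below the limit, 2 more differed by line. HOXB13, a prostate gene and a partner of the androgen receptor, had 2.82, 3.73 and 3.41 in KHOS against 4.16, 4.08 and 4.25 in U-2OS (-0.84 ± 0.50, adjusted p = 0.0366, 0.0830 without the untransfected KHOS array and 0.0637 without that of U-2OS). HOXB8, a thoracic gene with a role in myeloid cells, had 2.63, 3.92 and 3.63 in KHOS against 1.95, 2.05 and 2.13 in U-2OS (1.35 ± 0.61, adjusted p = 0.00789). Probe sets this dim carry no clear transcript signal.

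**Figure D2:**
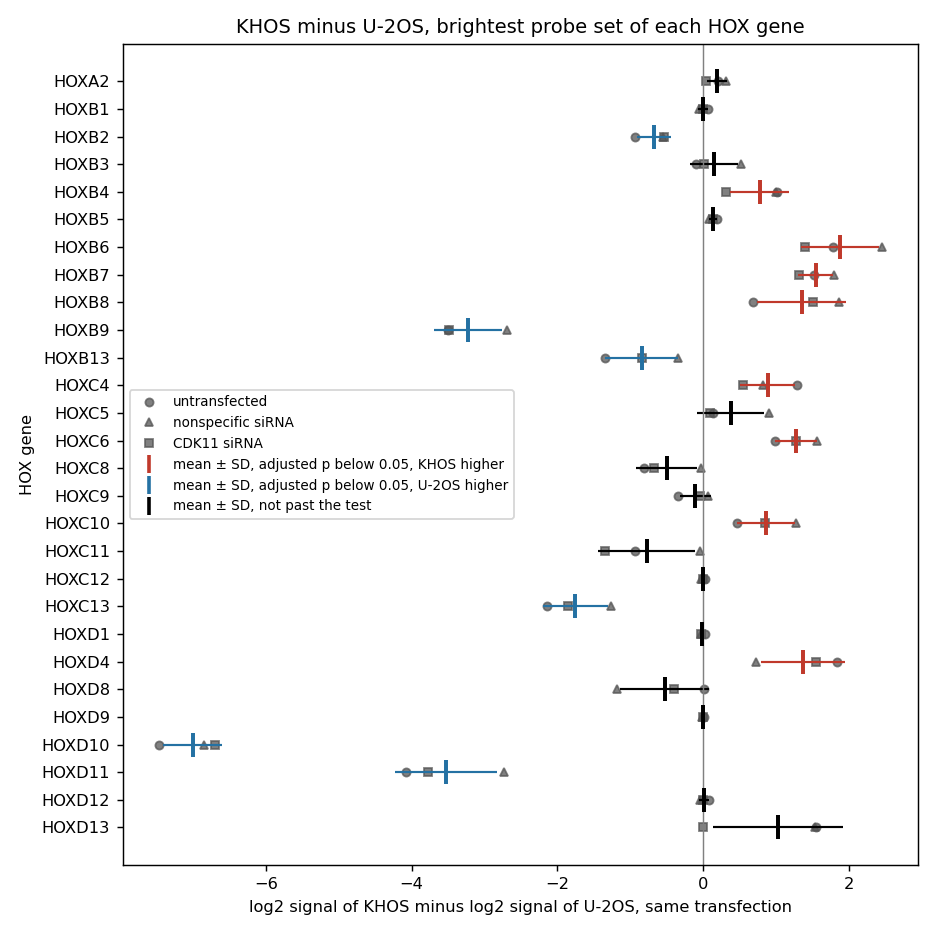
Log2 signal of KHOS minus U-2OS (horizontal axis) for the brightest probe set of 28 HOX genes (vertical axis), with 1 gray symbol per transfection and the mean ± SD of the 3. HOXD10, HOXD11 and HOXB9 stand apart on the U-2OS side, at -7.00, -3.53 and -3.22, and HOXB6 is the farthest on the KHOS side at 1.88.

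The name of a probe set also limits what it reads. An Affymetrix name that ends in _s_at marks probes shared by several transcripts, and _x_at marks probes that may bind other sequences. Among the 11 members above the limit on at least 1 array, the brightest probe sets of HOXB6, HOXB7 and HOXC6 are of the first kind. Those of HOXB2, HOXB3, HOXB4, HOXB9, HOXC4, HOXC10, HOXD10 and HOXD11 are of neither. Below the limit, the brightest probe sets of HOXB8 and HOXC13, both called between the lines, are also of the first kind. HOXB7 and HOXB9 each also have an _x_at probe set, and for both genes it differed between the lines in the same direction as the brightest. The dimmer probe sets of HOXB6, HOXB8, HOXB13 and HOXD4 lay near background and did not pass between the lines, unlike the brightest.

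The test over both lines made no call for any transfection, for HOX genes or for any other gene. For CDK11 siRNA against nonspecific siRNA, limma called 0 of 44 member probe sets and 0% of all 54675, with a smallest adjusted p of 0.623 among members and 0.325 among all. The probe sets of CDK11 were not called either, and the brightest of them, with a mean log2 difference of -2.46 over both lines, had an adjusted p of 0.325. A count of 0 from this fit therefore says nothing on whether HOX genes stayed stable, and the values are given as a description. At an unadjusted p of 0.05, 2 members passed (4.55%), where 5.87% of all probe sets did. They were HOXC4, with a log2 difference of -0.93 in KHOS and -0.65 in U-2OS (unadjusted p = 0.0157), and HOXB3, with 0.22 and 0.74 (unadjusted p = 0.0417). The fit rests on 2 residual degrees of freedom.

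Within a line each condition is 1 array, so the differences were set against the spread of all probe sets above the limit on any array, as z-scores with no p. This kept 13 member probe sets, some of them above the limit in the other line only. Of the 13, 0 lay beyond 3 SD after CDK11 siRNA in either line, against a background of 1.38% for KHOS and 1.87% for U-2OS. At 2 SD the count was 3 of 13 for KHOS, or 23.1% (background 5.46%), and 0 of 13 for U-2OS (background 5.58%). They were HOXB6 at -1.14 (z = -2.54), HOXB9 at -1.03 (z = -2.30, below the limit on all 3 KHOS arrays) and HOXC4 at -0.93 (z = -2.07).

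HOXB6 stood at 7.81 and 7.79 on the 2 KHOS control arrays and at 6.65 with CDK11 siRNA, and in U-2OS at 6.03 untransfected and at 5.33 and 5.24 with either siRNA. The CDK11 siRNA array was the lowest of its 3 in both lines, and in U-2OS it was 0.09 below nonspecific siRNA. For HOXB9 in U-2OS the difference was -0.23. Over the 8 members with a mean above the limit in KHOS, CDK11 siRNA minus nonspecific siRNA ran from -1.14 to 0.22 there (median -0.17, 4 below 0). Over the 9 members with a mean above it in U-2OS, it ran from -0.65 to 0.74 there (median 0.18, 3 below 0). Over all probe sets chosen by the same rule, the medians were 0.011 and 0.015.

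Nonspecific siRNA against untransfected cells gave 0 calls among members and 0% of all in the same fit, with 3 members at an unadjusted p of 0.05 (HOXC6, HOXB3 and HOXB8) and 4.15% of all probe sets. HOXC6 was lower by 0.32 in KHOS and by 0.89 in U-2OS, and neither difference passed the adjusted test. In U-2OS, 8 of the 9 members with a mean above the limit there had a lower value with nonspecific siRNA, with a median difference of -0.32 and a range of -0.89 to 0.58. Of all probe sets with a mean above it in U-2OS, 52.1% had a lower value, with a median of -0.013. In KHOS, 5 of 8 members were below 0, with a median of -0.026. In KHOS the only member past 2 SD was HOXD11 (from 2.81 to 3.97, z = 3.09), with a background of 4.84% past 2 SD and 1.51% past 3 SD. In U-2OS the only one was HOXC6 (z = -2.10), with a background of 5.26% past 2 SD and 1.59% past 3 SD. The KHOS values of HOXD11 are below the limit. This comparison shares the nonspecific siRNA array with the one above, so that 1 high or low array moves both in opposite directions.

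Against untransfected cells, CDK11 siRNA gave 0 calls among members and 0% of all. HOXB6 alone had an unadjusted p below 0.05 (-1.16 in KHOS and -0.79 in U-2OS, unadjusted p = 0.0171, adjusted p = 0.453), where 7.93% of all probe sets did. The median was -0.074 over the 8 members in KHOS (5 below 0) and -0.31 over the 9 in U-2OS (7 below 0). Over all probe sets chosen by the same rule, the medians were 0.0031 and 0.0020, and 49.6% were below 0 in each line. By its brightest probe set, HOXD10 in U-2OS was at or above 9.59 under every transfection, with differences between arrays of up to 0.64. Its dimmer probe sets, below the limit, spread further in U-2OS, where one read 5.92 untransfected and 5.60 with CDK11 siRNA, with its lowest value under nonspecific siRNA, and the other read 5.12, 5.10 and 4.14 in the order untransfected, nonspecific siRNA and CDK11 siRNA.

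**Figure D3:**
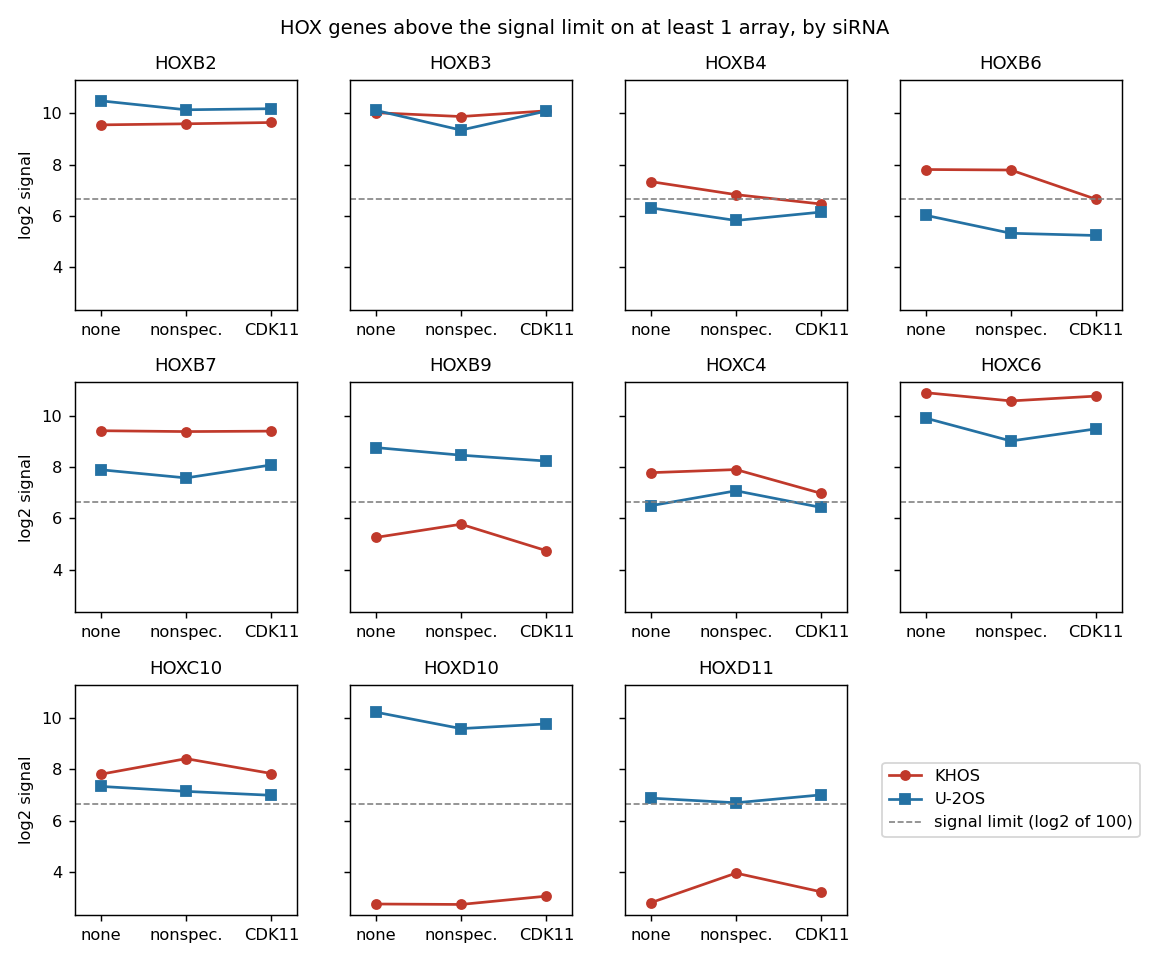
Log2 signal (vertical axis) of the 11 HOX genes above the limit on at least 1 array, against siRNA (none, nonspecific, CDK11), with 1 point per array, red circles for KHOS and blue squares for U-2OS. The dashed line is the limit of 6.64, and the lines of HOXD10, HOXD11 and HOXB9 stay apart at every siRNA while those of HOXB3 overlap.

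HOX proteins bind DNA together with PBX, MEIS and PKNOX proteins, and 8 of 9 of these cofactors had a named probe set. MEIS2 was much brighter in KHOS, with 11.67, 11.88 and 11.77 against 7.60, 7.61 and 7.30 (4.27 ± 0.20, adjusted p = 3.7e-05). MEIS1 was below the limit and brighter in U-2OS (-0.82 ± 0.25, adjusted p = 0.00482). The other 6 did not pass, and PBX2, PBX3 and PKNOX1 were above the limit in both lines. For such lists, as for the members, a signal in bulk RNA does not separate fewer cells from less RNA per cell.

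Polycomb proteins keep silent HOX clusters closed, and 26 of 30 had a named probe set, with 6 brighter in KHOS, 13 brighter in U-2OS and 7 not passing (median -0.45). These are 23.1% and 50% of the 26, where 17.7% and 16.9% of all named genes were brighter in KHOS and in U-2OS. CBX2, a reader of the repressive histone mark, had 4.05, 3.84 and 4.02 in KHOS against 8.63, 8.24 and 8.17 in U-2OS (-4.38 ± 0.22, adjusted p = 6.5e-05). PHC1 was also brighter in U-2OS (-2.81 ± 0.52), and PHF19 (2.43 ± 0.21) and JARID2 (1.34 ± 0.50), which attach to the methyltransferase complex, were brighter in KHOS. EZH2, the methyltransferase, did not pass (0.42 ± 0.24, adjusted p = 0.0762) and SUZ12, its partner, did not either.

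The MLL complexes and other factors that keep HOX genes open were all read, 18 of 18, with 5 brighter in KHOS, 4 in U-2OS and 9 not passing. The 50% called compares with 34.6% of all named genes. KMT2A, the MLL protein itself, had 9.61, 9.57 and 9.55 in KHOS against 6.63, 6.63 and 6.34 in U-2OS (3.04 ± 0.15, adjusted p = 9.3e-05). PSIP1, which tethers it to chromatin, was brighter in KHOS (2.06 ± 0.09), as was MLLT3 (1.62 ± 0.88), which was below the limit. MEN1, the menin subunit, was brighter in U-2OS (-1.22 ± 0.25).

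**Figure D4:**
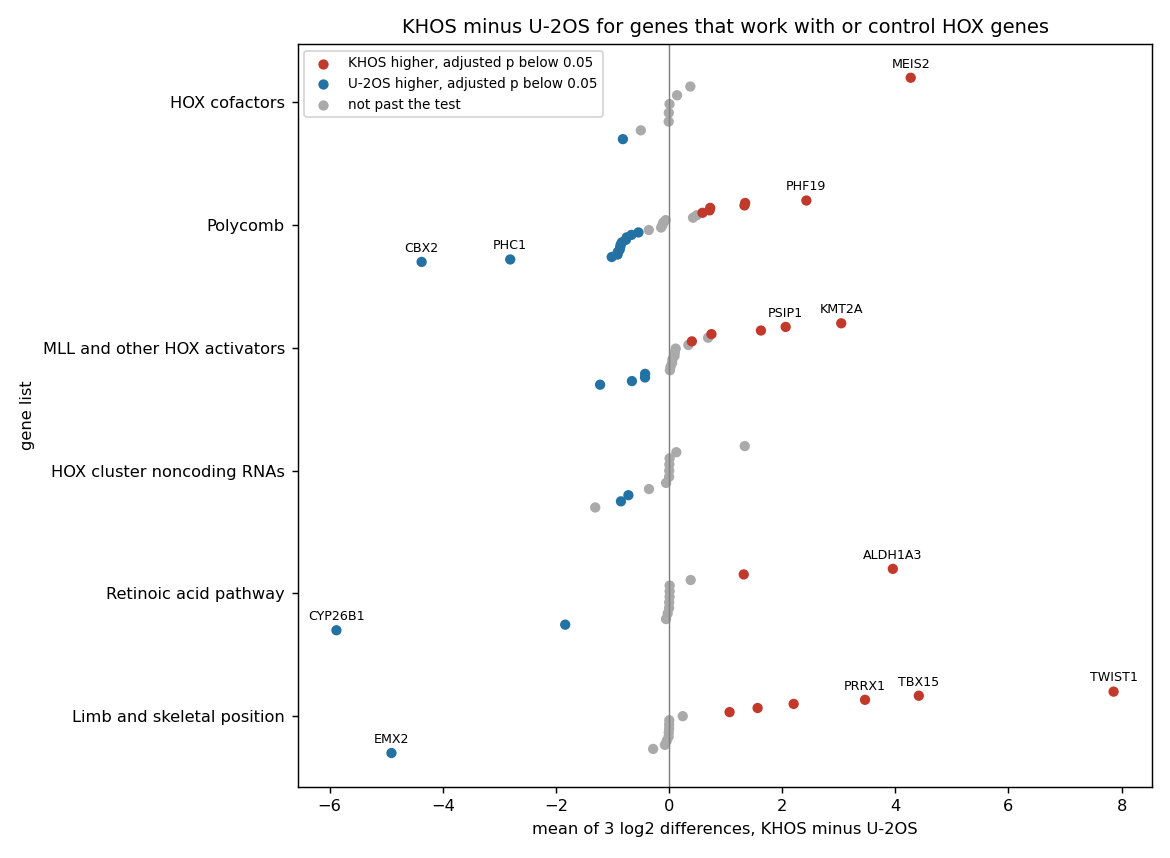
Mean of the 3 log2 differences KHOS minus U-2OS (horizontal axis) for genes that act with or on HOX genes, by list (vertical axis, with a small offset per gene), red and blue for an adjusted p below 0.05 and gray for the rest. MEIS2 at 4.27 and TWIST1 at 7.86 stand out toward KHOS, and CBX2 at -4.38, CYP26B1 at -5.88 and EMX2 at -4.91 toward U-2OS.

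Noncoding RNAs are transcribed from the HOX clusters, and 11 of 18 had a named probe set. HOTAIRM1, of the HOXA cluster, had no listed probe set and was not analysed here. The authors list it among their genes changed in both lines, with lower values after CDK11 siRNA than after nonspecific siRNA. Of the 11, HOXD-AS2 was the only one above the limit, with 6.16, 6.47 and 6.19 in KHOS against 7.09, 7.16 and 7.12 in U-2OS (-0.85 ± 0.14, adjusted p = 0.00820), and thus brighter in the line with the HOXD10 and HOXD11 signal. HOXB-AS1 also passed, below the limit (-0.72 ± 0.32, adjusted p = 0.0364). HOTAIR, the antisense RNA of the HOXC cluster, had 3.03, 3.02 and 3.05 in KHOS against 5.18, 4.74 and 3.10 in U-2OS, and did not pass (adjusted p = 0.0793). The related ParaHox and EVX genes were read for 7 of 8, all between 2.06 and 5.44, and 0 passed. The largest differences were those of EVX1 and PDX1 (adjusted p = 0.918 and 0.476).

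Retinoic acid sets the front border of HOX expression in the embryo. Of 15 genes in its pathway 12 were read, with 2 brighter in KHOS, 2 in U-2OS and 8 not passing. The share called, 33.3%, was near the 34.6% of all named genes. CYP26B1, which degrades retinoic acid, had 2.42, 2.38 and 2.74 in KHOS against 8.65, 8.12 and 8.41 in U-2OS (-5.88 ± 0.31, adjusted p = 4.3e-05). ALDH1A3, which makes it, was brighter in KHOS (3.96 ± 0.77, adjusted p = 0.000566), as was the receptor RXRA (1.32 ± 0.32), and CRABP2, which carries it, was brighter in U-2OS (-1.84 ± 0.81). All CRABP2 signals were below the limit.

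Other transcription factors of limb and skeletal position were read for 16 of 17, with 6 brighter in KHOS, 1 in U-2OS and 9 not passing. These are 37.5% and 6.25% of the 16, where 17.7% and 16.9% of all named genes were called. TWIST1, a mesenchymal factor, had 11.13, 10.98 and 10.94 in KHOS against 3.61, 3.05 and 2.82 in U-2OS (7.86 ± 0.31, adjusted p = 2.5e-05). TBX15 (4.41 ± 0.55) and PRRX1 (3.46 ± 0.93), factors of limb mesenchyme, were brighter in KHOS, and EMX2, of the shoulder girdle and the urogenital tract, was brighter in U-2OS (-4.91 ± 0.39, adjusted p = 8.3e-05). No gene of these lists passed for CDK11 siRNA against nonspecific siRNA or for nonspecific siRNA against untransfected cells. The same fit called 0% of all probe sets in both comparisons, so this says nothing on whether these genes responded.

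Markers of other cell types also differed by line. Of 6 epithelial genes, 3 were above the limit on at least 1 array. KRT8 (-4.12 ± 0.42) and CLDN4 (-0.95 ± 0.62) were brighter in U-2OS and EPCAM (3.33 ± 0.32) in KHOS. KRT18, CDH1 and KRT19 did not pass, and CDH1 and KRT19 stayed near background on all arrays. The summed linear signal of the 6 genes ran from 12669 to 13999 in KHOS and from 13499 to 16138 in U-2OS. Of 4 blood cell genes 0 were above the limit, and the highest log2 signal was 3.22. The part of these markers in the HOX differences was not tested.

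The genes that flank the clusters were read in the same way, and a mean is given with its SD where the test was passed. EVX2, next to HOXD13, was not named on the array. Beside the HOXD cluster, LNPK on the HOXD13 side was brighter in KHOS (1.82 ± 0.19), the opposite direction to HOXD10, and on the other side MTX2 (-0.35 ± 0.11) was slightly brighter in U-2OS and HNRNPA3 (1.63 ± 0.42) brighter in KHOS. Beside the HOXB cluster, SNX11, SKAP1 and TTLL6 did not pass and CALCOCO2 was brighter in U-2OS (-0.98 ± 0.14). Beside the HOXC cluster CBX5 was brighter in KHOS (0.60 ± 0.29), and SMUG1, CALCOCO1 and ATP5MC2 did not pass.

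Beside the HOXA cluster the line differences were large. SKAP2, an adaptor protein next to its 3′ end, had 9.67, 9.33 and 9.70 in KHOS against 3.78, 3.65 and 4.09 in U-2OS (5.72 ± 0.15). SNX10, the next gene, had the opposite direction (-3.55 ± 0.52). On the other side EVX1 did not pass and HIBADH was brighter in U-2OS (-1.52 ± 0.19). HOXA2, the one HOXA gene read, lay between 2.38 and 2.72 on the 6 arrays, and the rest of the cluster was not analysed here.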

How the data were processed

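KHOS and U-2OS cells were measured on 6 Affymetrix U133 Plus 2.0 arrays. The authors deposited log2 values normalized with gcrma (background adjustment, quantile normalization and summary per probe set), and all 54675 probe sets were used. The authors' present calls were not used here. The number of arrays limits the precision. Names came from the platform annotation, updated by gene ID through RefSeq (41043 of 41097 probe sets with 1 symbol). Another 1801 had several symbols and 11777 none listed, and HOXA3 to HOXA13, HOXD3 alone and HOTAIRM1 were not named there.

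Members and lists were chosen with earlier results of these data known. Members above the limit on all 3 arrays of a line were described by the brightest probe set, the others by range and count. From each list up to 4 genes past a test, or else the 2 with the largest difference, were named, with 2 protein-coding neighbors on each side of a cluster. HOXC11, HOXD13, EZH2, SUZ12, PBX2, PBX3, PKNOX1, HOTAIR, HAGLROS, HAGLR, CDH1, KRT18, KRT19 and the low osteoblast markers were chosen after their values were seen.

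Cell line and transfection were fitted with limma 3.58.1 in R 4.3.3 (trend, 2 residual degrees of freedom, two-sided, Benjamini-Hochberg over all probe sets). A z-score is a log2 difference minus the mean over the 16397 probe sets above the limit on any array, divided by their SD. Tested on simulated data of KHOS against U-2OS with 54675 probe sets, the fit recovered 91% of 67 changes of 1 log2 unit and 100% of 67 of 2, and called 7 unchanged probe sets. Python 3.11.15 and pandas 2.3.3 were used.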

Additional observations from a re-analysis of the deposited data

Results flagged for a closer look

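HOXC11, the lumbosacral gene nearest to the limit, differed between CDK11 siRNA and nonspecific siRNA in opposite directions, by -0.61 in KHOS and by 0.70 in U-2OS. Against untransfected cells, CDK11 siRNA differed by -0.36 in KHOS and by only 0.05 in U-2OS. Nonspecific siRNA minus untransfected was 0.25 in KHOS and -0.65 in U-2OS, so the U-2OS value of 0.70 rests on a low nonspecific siRNA array. No test of this contrast between KHOS and U-2OS was run, each value rests on 1 array against 1, and all 6 signals were below the limit.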

How the results depend on the processing

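Of the 14 members called between the lines, 8 passed under all 11 alternatives run. HOXB4, HOXB8, HOXB13, HOXC4, HOXC10 and HOXD4 each missed in at least 1, in the same direction. HOXB3, which did not pass, turned from 0.15 to -0.0055 with centered arrays, and leave-one-out gave -0.042 (without either nonspecific siRNA array) to 0.27. At a limit of 200, 5 members in place of 8 were above it in U-2OS and 5 in place of 7 in KHOS. Without the variance trend 5 probe sets in place of 10 were brighter in KHOS. The filter on probe sets above the limit kept 13 member probe sets, with 4 in place of 9 brighter in U-2OS and 8 in place of 10 in KHOS. The calls lost were on probe sets that the filter removed, and 75.6% of all probe sets kept passed. With centered arrays 24 were brighter in U-2OS. Leaving out 1 array gave 8 to 12 brighter in KHOS and 8 to 11 in U-2OS.

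For transfection, leave-one-out gave 0 to 3 member calls for CDK11 against nonspecific siRNA, 0 to 3 for nonspecific siRNA against untransfected and 0 to 4 for CDK11 siRNA against untransfected, on 7 genes (HOXB3, HOXB6, HOXB8, HOXC4, HOXC6, HOXD10 and HOXD13). These fits have 1 residual degree of freedom, assume that the lone array varies like the rest, and called up to 4337 of all probe sets. Over all probe sets, 0 were called in each comparison, against 211, 5 and 574 with the limit as a filter and 138, 4 and 350 with centered arrays, none of them members. Against 0 members beyond 3 SD in KHOS there were 3 beyond 2 SD, 2 with median and MAD (HOXB6 and HOXB9) and 3 without the filter (with HOXD13), and in U-2OS 1 without it (HOXD10, by a dim probe set). The cause was not tested. The line comparison pairs arrays by transfection, and without that block its counts stayed within 1.5 times. Signal near background limits what dim probe sets can show.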
